A study of Mus musculus with 6 samples.

Results

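The mitochondrial ribosomal protein genes of the mouse, whose symbols begin with Mrpl (large subunit) or Mrps (small subunit) and a number, were compared between osteoblasts and chondrocytes. A total of 76 gene symbols in the table followed this pattern, 47 Mrpl and 29 Mrps, of 23364 symbols in all. They covered 85 of 31055 RefSeq transcripts, and the RPKM values (read number relative to transcript length and library depth) of a gene's transcripts were added up. All 76 passed the filter on low values, which kept genes that reached 1 RPKM in 3 or more of 6 libraries, and so all 76 were among the 11218 genes tested. The rule for members used symbols alone, although it was chosen with earlier results of these data known.

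RNA-seq libraries came from 3 samples of osteoblasts, the bone-forming cells, and 3 samples of chondrocytes, the cartilage cells, all from C57BL/6 mice at postnatal day 1. The osteoblasts were labelled Sp7 positive, were taken from the calvaria (the skull roof) with the enzyme blend Liberase and were sorted for GFP. The chondrocytes were labelled wild type and were released from rib cartilage with Pronase and Collagenase D. Cell type, skeletal site, sorting, genotype and enzyme changed together between the groups and cannot be told apart. The labels do not say that the replicates were separate animals or pools, so p-values measure only the spread between these samples. In bulk RNA, more of the cells with a high level and more RNA per cell cannot be told apart.

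Mitochondria carry ribosomes of their own, which descend from bacterial ribosomes and make the few respiratory chain subunits encoded in mitochondrial DNA. The ribosomal RNAs come from mitochondrial DNA, but every protein of the mitoribosome is encoded in the nucleus, made in the cytosol and imported. Many of these proteins have a bacterial counterpart and others are found only in mitochondria. The small subunit decodes the mRNA, and the large subunit joins the amino acids and lies against the inner membrane, where the new proteins are inserted. In the skeleton, osteoblasts lie in vascularised bone, whereas cartilage is avascular and its chondrocytes are known for relying strongly on glycolysis.

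Start regions of 5 members and the stretch shared by a divergent pair are shown because the values below turn on these genes. Mrpl12 and Mrps36 had the highest log2 differences among Mrpl and Mrps genes, Mrpl44 the lowest of all members, Mrpl52 the highest RPKM, and Mrps18a belongs to a set of 3 paralogs. Each is the 120 bases before the annotated start, 5′ to 3′ on the gene's strand, from RefSeq on GRCm38.p6, which is not the mm9 build of the deposited values. Capitals mark the letters of an ETS motif (CCGGAAG) or an NRF1 motif (GCGCA, any base, then GCGC) on either strand.
Mrpl12, chr11:120484517-120484636, plus strand: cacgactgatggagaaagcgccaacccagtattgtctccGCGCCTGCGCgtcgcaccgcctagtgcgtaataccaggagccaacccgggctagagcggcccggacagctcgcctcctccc
Mrpl44, chr1:79775898-79776017, plus strand: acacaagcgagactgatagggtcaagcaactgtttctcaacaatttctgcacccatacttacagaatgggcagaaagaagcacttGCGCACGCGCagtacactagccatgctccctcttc
Mrpl52, chr14:54426789-54426908, plus strand: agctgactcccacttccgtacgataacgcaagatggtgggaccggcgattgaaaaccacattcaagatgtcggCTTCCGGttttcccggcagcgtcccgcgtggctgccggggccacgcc
Mrps18a, chr17:46110884-46111003, plus strand: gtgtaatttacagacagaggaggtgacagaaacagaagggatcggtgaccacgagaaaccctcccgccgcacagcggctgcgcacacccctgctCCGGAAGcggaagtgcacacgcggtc
Mrps36, chr13:100744660-100744779, minus strand: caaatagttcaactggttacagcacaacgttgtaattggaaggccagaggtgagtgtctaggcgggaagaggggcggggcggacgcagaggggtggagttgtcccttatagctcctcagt
Mrps11 and Mrpl46, whole stretch between the starts, chr7:78783090-78783130, plus strand: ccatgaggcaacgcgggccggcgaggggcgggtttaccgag

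The start windows of the members held several motifs known from nuclear genes of mitochondrial proteins. RefSeq windows from 250 bases before to 50 bases after the start were at hand for 67 of the 76 members, which have 73 such windows, and both strands were searched. The ETS letters CCGGAAG were in 24 of the 67 members (35.8%), against 21.1% of the 8994 tested genes with a window. By window the share was 32.9% for the members, against 8.86% of all 32851 windows. The NRF1 letters were in 12 members (17.9%), against 12.2% of tested genes, and in 16.4% of member windows, against 4.60% of all windows. The YY1 letters AAGATGGC were also in 12 members (17.9%), against 5.68% of tested genes, and in 16.4% of member windows, against 2.75% of all windows. The TATA box letters TATAAA were in 5 members (7.46%), against 8.17% of tested genes, and in 6.85% of member windows, against 13.6% of all windows. The GC box letters GGGCGG were in 33 members (49.3%), against 72.2% of tested genes, but in 52.1% of member windows, against 35.7% of all windows. None of these motifs was searched for overlap with another, and a match is a match of letters and not a bound site. Mrpl12 and Mrpl44 both carry the NRF1 letters, although they stand at opposite ends of the family in the comparison below. The median log2 difference of members with and without the letters was 0.96 and 0.67 for ETS, 0.66 and 0.82 for NRF1, 0.90 and 0.80 for YY1, 0.53 and 0.82 for TATA and 0.82 and 0.86 for the GC box, so the splits did not run one way, and none was tested.

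As a check of the labels, the 7 osteoblast markers (among them Sp7, Col1a1 and Bglap) were all called higher in osteoblasts and the 7 chondrocyte markers (among them Sox9, Col2a1 and Acan) all called lower. Summed chondrocyte marker RPKM was 68.0 to 82.9 in osteoblast libraries and 30622 to 53735 in chondrocyte libraries, and summed osteoblast marker RPKM was 20512 to 22288 against 2277 to 7779. Markers of other cells moved as well. The myeloid and osteoclast list summed to 27.1 to 33.5 RPKM in osteoblasts and 3.97 to 8.70 in chondrocytes, with 6 of 7 markers tested and all 6 called higher. Erythroid markers summed to 13.5 to 29.2 against 2.92 to 12.8 (2 of 4 tested, 1 called higher). Endothelial markers summed to 0.475 to 1.96 against 1.94 to 4.59 (0 of 4 tested). Skeletal muscle markers summed to 0.735 to 1.15 against 9.26 to 40.2 (1 of 4 tested, called lower). That 1 gene, Tnnt3, made up nearly all of the muscle sum in chondrocytes, at 13.1, 40.1 and 9.16 RPKM. Acta1, Myh3 and Ckm averaged at most 0.105 RPKM in either group, and Myh3 was the higher in osteoblasts. Of all tested genes, 55.5% were called higher and 13.5% lower. The part of these cells in the results below was not tested. The table holds no read counts, and from the steps of its low values the depth was estimated at 26900000 to 34600000 reads in osteoblast libraries and 33400000 to 35800000 reads in chondrocyte libraries. At that depth the value of a single-transcript member in 1 library rested on 49.0 to 3649 reads, with a median of 440.0, over the 66 such members with a known length.

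Summed over the family, mitoribosomal protein RNA was 1.88 times as high in osteoblasts as in chondrocytes. The 76 genes together had 1235, 1221 and 1132 RPKM in the 3 osteoblast libraries, against 631, 609 and 673 RPKM in the 3 chondrocyte libraries. The means were 1196 ± 55.9 and 637 ± 32.7 RPKM (SD, n = 3 each), and the groups did not overlap. The family made up 0.386%, 0.384% and 0.381% of all RPKM in osteoblast libraries, against 0.224%, 0.225% and 0.238% in chondrocyte libraries. The 5 most abundant genes of a library took 12.8% to 13.9% of all RPKM in osteoblasts and 18.9% to 24.4% in chondrocytes, and the part of this difference in the family's levels was not tested.

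Both subunits were higher in osteoblasts by a like factor. Mrpl genes summed to 811, 798 and 738 RPKM in osteoblasts and to 417, 404 and 439 RPKM in chondrocytes. Mrps genes summed to 424, 423 and 394 RPKM in osteoblasts and to 214, 204 and 234 RPKM in chondrocytes. The ratio of the sums, which does not depend on how a library is scaled, was 1.91, 1.89 and 1.87 in osteoblasts and 1.95, 1.98 and 1.88 in chondrocytes. Its means were 1.89 ± 0.0188 and 1.94 ± 0.0485 (SD, n = 3 each), and the groups overlapped. With Mrps30 and Mrps18a counted in the large subunit, where structures place their proteins, and Mrps36 left out, the ratio was 2.20 ± 0.0183 in osteoblasts and 2.26 ± 0.0633 in chondrocytes.

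**Figure D1:**
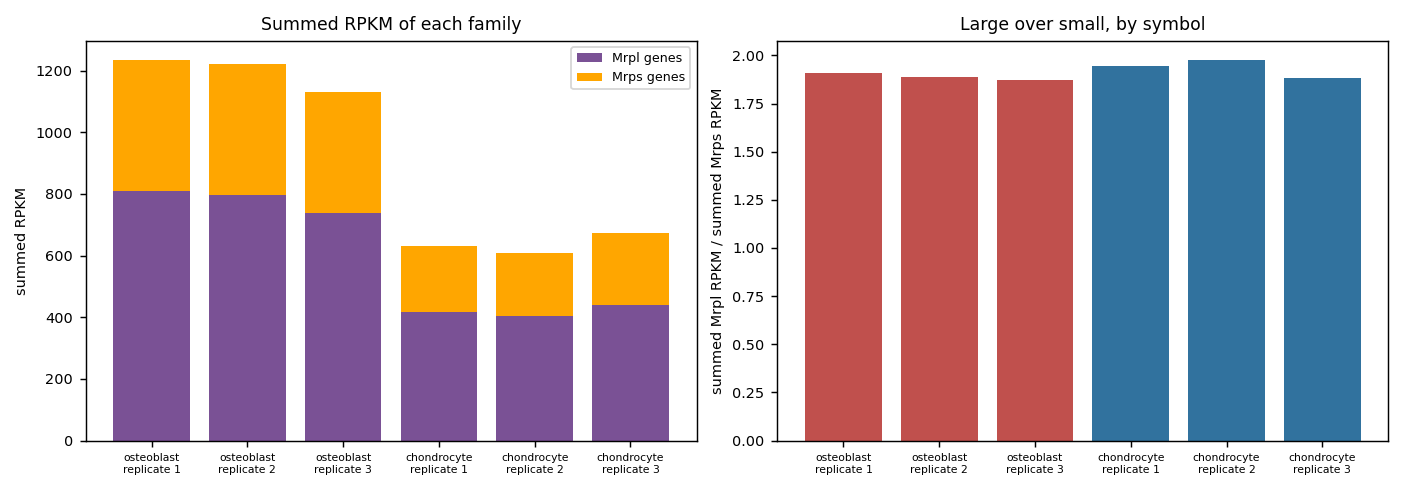
Summed RPKM of the 47 Mrpl and 29 Mrps genes in each library (left, stacked bars) and the ratio of the 2 sums (right), for osteoblast and chondrocyte replicates 1 to 3. Osteoblast totals lie between 1132 and 1235 RPKM and chondrocyte totals between 609 and 673 RPKM, while the ratio stays between 1.87 and 1.98 in all 6 libraries.

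Gene by gene, 68 of the 76 members were called higher in osteoblasts by limma on log2(RPKM + 1) at a Benjamini-Hochberg adjusted p under 0.05, where 55.5% of all tested genes were called higher. No member was called lower, where 13.5% of all tested genes were, and 1 member was lower at an unadjusted p under 0.05. The called genes were 42 of 47 Mrpl genes and 26 of 29 Mrps genes. By place in the mitoribosome they were 43 of 49 in the large subunit and 24 of 26 in the small subunit. The members not called were Mrpl1, Mrpl44, Mrpl47, Mrpl48, Mrpl50, Mrps6, Mrps30 and Mrps31. In 70 of 76 members every osteoblast library was above every chondrocyte library, a pattern found in 60.4% of all tested genes, and in 1 (Mrpl44) every osteoblast library was below, as in 15.3% of all tested genes. The median log2 difference (osteoblast minus chondrocyte) was 0.81 over the family, 0.79 over Mrpl and 0.82 over Mrps genes, against 0.43 over all tested genes.

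Since the median gene was itself shifted by 0.43, the calls were also read on another scale. After median-of-ratios scaling, which brought the median of all tested genes to 0.02, 46 members were called higher and 5 lower, where 30.8% of all tested genes were called higher and 30.6% lower. The 46 were 28 Mrpl and 18 Mrps genes, and each of them was also called higher as deposited. The 5 called lower were Mrpl1, Mrpl44, Mrpl48, Mrps30 and Mrps31. The number called lower was 1 without osteoblast replicate 1 and 3 without osteoblast replicate 2 or 3. The median of the family was then 0.36, with 0.35 over Mrpl and 0.36 over Mrps genes. On that scale 62 members had a positive log2 difference and 14 a negative one, against 75 and 1 as deposited. Below, a member's log2 difference is given on RPKM as deposited unless the scaling is named.

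The size of the difference varied between members. The ratio of mean RPKM, osteoblast over chondrocyte, ran over the members from 0.813 to 3.22 with a median of 1.87. Of the 76 ratios, 53 lay between 1.5 and 2.5, a count that was not made over all tested genes. Mean levels ran from 1.87 to 65.2 RPKM in osteoblasts and from 1.48 to 27.7 RPKM in chondrocytes for Mrpl genes, and from 3.27 to 34.8 RPKM and 1.78 to 17.0 RPKM for Mrps genes. The order of levels was similar in the 2 cell types: 7 of the 10 most abundant members were shared, and across the 76 genes, which share the libraries and so are not independent, log2 levels had a Pearson correlation of 0.924 and levels a Spearman correlation of 0.917. Members with a bacterial counterpart (48 tested) had a median log2 difference of 0.81, with 45 called higher (93.8%). Members known only from mitochondria (27 tested) had a median of 0.73, with 22 called higher (81.5%). Of all tested genes, 55.5% were called higher. After median-of-ratios scaling these groups had medians of 0.37 and 0.33. Of the first group 30 were then called higher (62.5%) and 1 lower (2.08%). Of the second group 15 were called higher (55.6%) and 4 lower (14.8%). The shares of all tested genes on that scale were 30.8% higher and 30.6% lower.

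**Figure D2:**
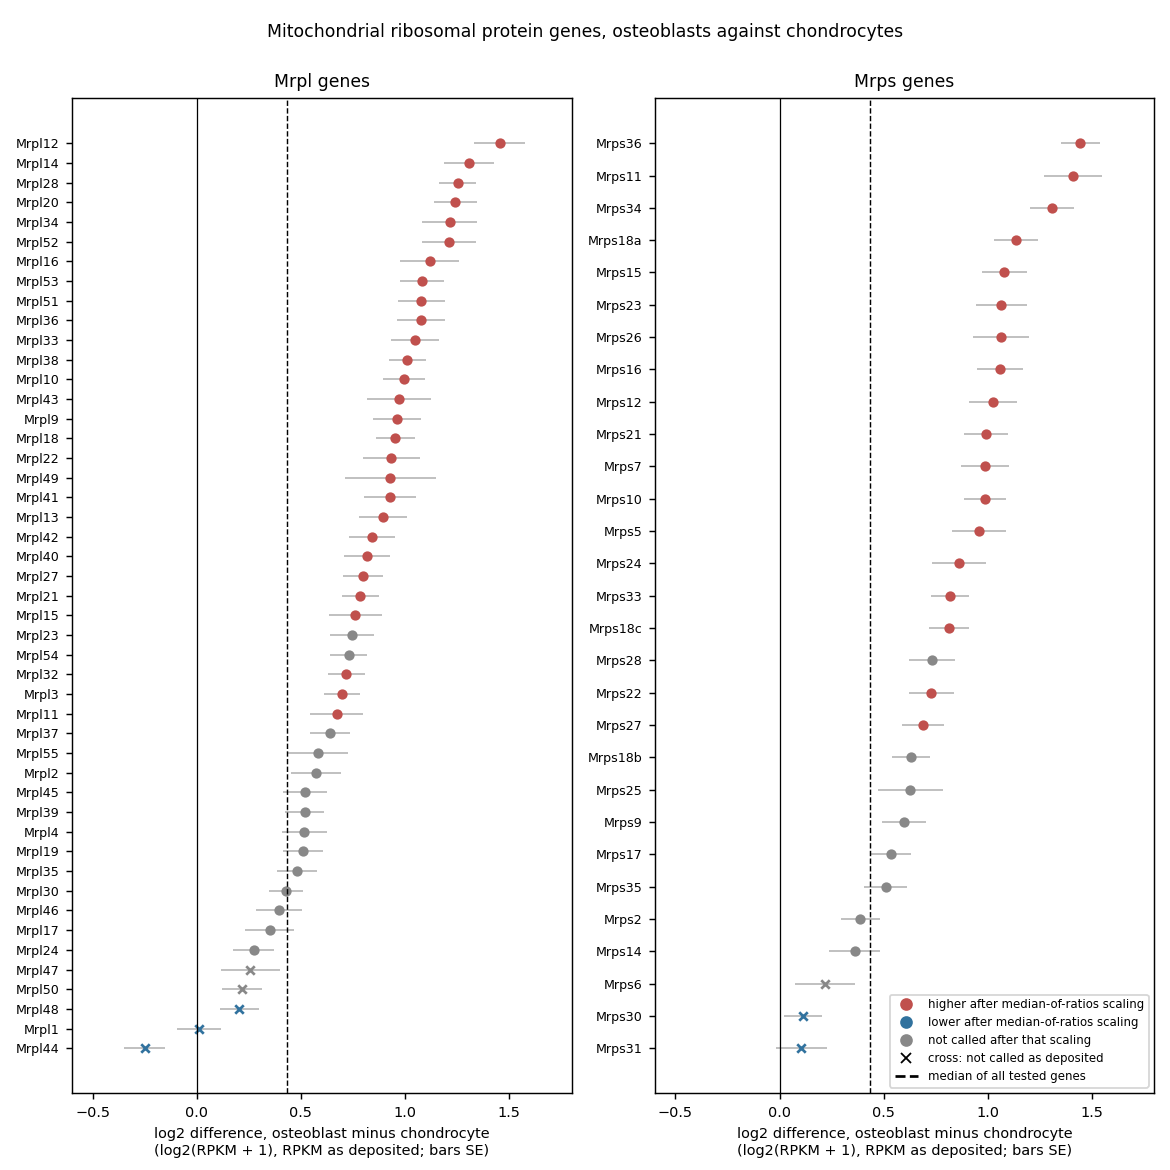
Log2 difference (osteoblast minus chondrocyte, log2(RPKM + 1) scale, RPKM as deposited) of each Mrpl gene (left) and Mrps gene (right), with the standard error as a bar and the median of all tested genes, 0.43, as a dashed line. Colours give the call after median-of-ratios scaling and crosses mark the 8 members not called as deposited. Mrpl12 and Mrps36 stand at the top and Mrpl44, at -0.25, at the bottom. Mrpl1, Mrps31, Mrps30, Mrpl48 and Mrps6, the lowest after Mrpl44, lie at or above 0 here but below 0 after that scaling. Other members turn as well: 75 are positive and 1 negative here, and 62 and 14 after that scaling.

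In the large subunit Mrpl12, Mrpl14 and Mrpl28 differed most. Mrpl12, the bL12-type stalk protein that recruits translation factors to the ribosome, had 37.4, 34.9 and 30.8 RPKM in osteoblasts and 11.4, 10.7 and 13.7 RPKM in chondrocytes. All 3 osteoblast libraries were more than 2 times as high as any chondrocyte library. The means were 34.4 ± 3.33 and 11.9 ± 1.57 RPKM (SD, n = 3 each), a ratio of 2.88, with a log2 difference of 1.45 ± 0.12 (SE; limma adjusted p = 5.62e-05) and of 0.98 after median-of-ratios scaling (adjusted p = 0.000131). Mrpl10, which anchors the Mrpl12 stalk, averaged 19.6 ± 0.712 RPKM in osteoblasts and 9.34 ± 0.973 RPKM in chondrocytes, with a log2 difference of 1.00. Mrpl11, of the base of the same stalk, was less abundant, averaging 4.69 ± 0.371 RPKM in osteoblasts and 2.59 ± 0.472 RPKM in chondrocytes, with a log2 difference of 0.67. All 3 stalk genes were called higher under both scalings.

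Mrpl14, which lies at the interface with the small subunit, had 24.5, 24.3 and 21.9 RPKM in osteoblasts and 7.49, 9.97 and 9.49 RPKM in chondrocytes. The groups were far apart, with means of 23.6 ± 1.41 and 8.99 ± 1.32 RPKM and a log2 difference of 1.31 ± 0.12 (limma adjusted p = 8.61e-05). RefSeq places Mrpl14 and the neighbouring gene Tmem63b in overlapping spans on GRCm38.p6, and with strand handling not stated, reads of these genes might not have been told apart. Mrpl28, the counterpart of bacterial L28, had 23.2, 22.8 and 21.8 RPKM in osteoblasts and 8.68, 8.55 and 9.51 RPKM in chondrocytes. Its spread was small in both groups, and its log2 difference was 1.25 ± 0.09 (adjusted p = 2.56e-05). Both genes kept a positive call after median-of-ratios scaling, at 0.84 for Mrpl14 and 0.79 for Mrpl28.

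Mrpl52, a protein found only in mitochondria, was the most abundant member in both cell types. It had 69.7, 66.8 and 59.0 RPKM in osteoblasts and 30.0, 23.5 and 29.6 RPKM in chondrocytes, with a log2 difference of 1.21 ± 0.13 (limma adjusted p = 0.000158). Mrpl33, the counterpart of bacterial L33, had 46.4, 44.2 and 40.7 RPKM in osteoblasts and 19.4, 23.7 and 19.1 RPKM in chondrocytes, with a log2 difference of 1.05 ± 0.12 (adjusted p = 0.000184). For both, the lowest osteoblast value was well above the highest chondrocyte value. Mrpl30, the counterpart of bacterial L30, was also among the most abundant members but moved little. It had 30.9, 30.4 and 30.2 RPKM in osteoblasts and 23.0, 21.9 and 22.4 RPKM in chondrocytes. Its groups did not overlap and its log2 difference of 0.43 ± 0.08 was called (adjusted p = 0.00271), yet this equals the median of all genes, and after median-of-ratios scaling it turned to -0.05 (adjusted p = 0.596). Mrpl30 was therefore the second most abundant member in chondrocytes and only the seventh in osteoblasts.

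Mrpl44, a protein known only from mitochondria whose fold resembles RNase III, was the only member with a negative log2 difference as deposited. It had 4.73, 4.62 and 5.09 RPKM in osteoblasts and 5.49, 6.44 and 5.84 RPKM in chondrocytes. All osteoblast values lay below all chondrocyte values, with means of 4.82 ± 0.246 and 5.92 ± 0.480 RPKM (SD, n = 3 each). The log2 difference of -0.25 ± 0.10 missed the threshold (limma adjusted p = 0.0543), and that of -0.67 after median-of-ratios scaling passed it (adjusted p = 0.00336). The span of Mrpl44 overlaps that of Wdfy1 in RefSeq, so the same doubt about strand applies.

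Mrpl1, of the mobile L1 stalk that guides spent tRNA out of the ribosome, was among the least abundant members. It had 2.00, 1.99 and 1.62 RPKM in osteoblasts and 1.69, 1.91 and 1.92 RPKM in chondrocytes, so the groups overlapped fully, with a log2 difference of 0.01 ± 0.10 (limma adjusted p = 0.928) that became -0.32 after median-of-ratios scaling (adjusted p = 0.0326). Mrpl48, of the central protuberance, had 17.4, 18.8 and 17.6 RPKM in osteoblasts and 15.4, 14.4 and 16.5 RPKM in chondrocytes. These groups stood just apart, and the log2 difference was 0.20 ± 0.09 as deposited (adjusted p = 0.0841) and -0.27 after that scaling (adjusted p = 0.017). Its span overlaps that of Rab6a, and a transcript listed as non-coding made up 11.6%, 16.8% and 29.1% of its RPKM in osteoblasts and 12.3%, 14.2% and 16.5% in chondrocytes.

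Among the Mrps genes Mrps36, Mrps11 and Mrps34 differed most. Mrps36, named as a ribosomal protein but now known as a component of the 2-oxoglutarate dehydrogenase complex of the citric acid cycle, had 15.5, 15.1 and 15.4 RPKM in osteoblasts and 4.53, 5.31 and 5.18 RPKM in chondrocytes. The osteoblast libraries were nearly equal and about 3 times as high as the chondrocyte libraries, a ratio of means of 3.06. The log2 difference was 1.44 ± 0.09 (limma adjusted p = 1.71e-05) and 1.00 after median-of-ratios scaling (adjusted p = 0.000328). Mrps34, a protein of mitochondria alone, had 23.7, 21.0 and 20.7 RPKM in osteoblasts and 8.57, 7.37 and 8.67 RPKM in chondrocytes, with a log2 difference of 1.31 ± 0.10 (adjusted p = 4.24e-05).

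Mrps11, the platform protein that corresponds to bacterial S11, had 9.59, 9.74 and 8.12 RPKM in osteoblasts and 2.65, 2.36 and 3.52 RPKM in chondrocytes. Its ratio of means, 3.22, was the highest of the family, with a log2 difference of 1.41 ± 0.14 (limma adjusted p = 0.000112). The rank of Mrps11 differs between these measures because adding 1 before taking the log2 shrinks the change of a gene of low RPKM. Mrps12, the counterpart of bacterial S12 at the decoding centre, averaged 17.1 ± 1.60 RPKM in osteoblasts and 7.89 ± 0.925 RPKM in chondrocytes, with a log2 difference of 1.03. Mrps11, Mrps12 and Mrps34 were called higher after median-of-ratios scaling too.

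The 3 most abundant small subunit members were Mrps21, Mrps16 and Mrps26, all above the family's median log2 difference of 0.81. Mrps21, the counterpart of bacterial S21, had 31.3, 38.8 and 34.4 RPKM in osteoblasts and 17.2, 16.3 and 17.4 RPKM in chondrocytes, with a log2 difference of 0.99 ± 0.11 (limma adjusted p = 0.00016). Mrps16, the counterpart of bacterial S16, had 28.7, 26.4 and 27.8 RPKM in osteoblasts and 11.8, 11.9 and 14.6 RPKM in chondrocytes, with a log2 difference of 1.06 ± 0.11 (adjusted p = 0.000139). In both genes the osteoblast libraries stood clear of the chondrocyte libraries. Mrps26, known only from mitochondria, had 24.6, 22.9 and 20.3 RPKM in osteoblasts and 10.2, 8.67 and 12.1 RPKM in chondrocytes, with a log2 difference of 1.06 ± 0.14 (adjusted p = 0.000376). All 3 were called higher after median-of-ratios scaling, at 0.51, 0.58 and 0.59.

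Mrps30, Mrps31 and Mrps6 stood at the low end. Mrps30, whose protein sits in the large subunit despite its name, had 11.0, 11.6 and 10.1 RPKM in osteoblasts and 9.72, 10.1 and 10.2 RPKM in chondrocytes. Mrps31, known only from mitochondria, had 4.48, 5.46 and 5.51 RPKM in osteoblasts and 5.15, 4.10 and 4.93 RPKM in chondrocytes. Both overlapped between groups, with log2 differences of 0.11 ± 0.09 (limma adjusted p = 0.303) and 0.10 ± 0.12 (adjusted p = 0.463), and both turned negative and were called lower after median-of-ratios scaling, at -0.35 (adjusted p = 0.0145) and -0.31 (adjusted p = 0.0342). Mrps6, the counterpart of bacterial S6, had 13.1, 12.2 and 13.3 RPKM in osteoblasts and 12.4, 8.59 and 12.3 RPKM in chondrocytes, where replicate 2 was low, and its log2 difference was 0.22 ± 0.14 (adjusted p = 0.213) as deposited and -0.25 (adjusted p = 0.0707) after that scaling. The span of Mrps6 overlaps that of Slc5a3.

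Mrps18a, Mrps18b and Mrps18c are paralogs of 1 bacterial protein, S18, and differ in where they sit: Mrps18a lies in the large subunit and the other two in the small subunit. Mrps18a had 19.0, 18.8 and 17.8 RPKM in osteoblasts and 7.57, 7.21 and 8.95 RPKM in chondrocytes, a log2 difference of 1.14 ± 0.10 (limma adjusted p = 7.91e-05). Mrps18c had 13.1, 14.3 and 12.4 RPKM in osteoblasts and 6.98, 6.92 and 7.48 RPKM in chondrocytes, a log2 difference of 0.81 ± 0.09 (adjusted p = 0.000245). Mrps18b had 12.1, 12.5 and 12.0 RPKM in osteoblasts and 6.97, 7.78 and 7.82 RPKM in chondrocytes, a log2 difference of 0.63 ± 0.09 (adjusted p = 0.000616). The 3 were close in chondrocytes, with means of 7.91, 7.13 and 7.52 RPKM for Mrps18a, Mrps18c and Mrps18b, and Mrps18a was set apart in osteoblasts at 18.5 RPKM, against 13.3 for Mrps18c and 12.2 for Mrps18b. After median-of-ratios scaling Mrps18a (0.67) and Mrps18c (0.36) were called higher and Mrps18b was not (0.18, adjusted p = 0.165). The differences between the paralogs were not tested as such, and the sources do not state how reads were divided between similar genes.

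**Figure D3:**
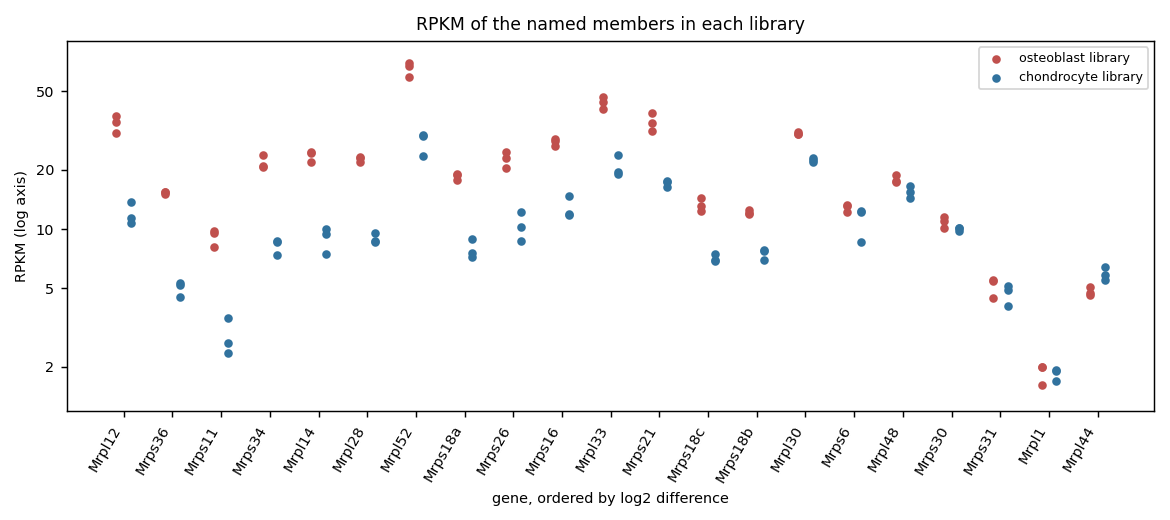
RPKM of 21 members in each library on a log axis, ordered by log2 difference, with 3 osteoblast points left of 3 chondrocyte points for each gene. The osteoblast points stand above the chondrocyte points from Mrpl12 to Mrpl30 and for Mrpl48 (for Mrpl30 and Mrpl48 the order of the means turns after median-of-ratios scaling), overlap them for Mrps6, Mrps30, Mrps31 and Mrpl1, and lie below them for Mrpl44 (4.62 to 5.09 RPKM in osteoblasts, 5.49 to 6.44 RPKM in chondrocytes).

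To read the members against one another, each library was scaled to its own summed Mrp RPKM, which removes the shift shared by the family. On that scale 13 members were called higher in osteoblasts and 19 lower, and 44 were not called. Of all tested genes, 16.2% were called higher and 50.5% lower. The 17.1% of members called higher was close to the share of all tested genes, and 25% of members were called lower. Since the scaling centres the family on itself, members fall on both sides by construction (37 positive and 39 negative). The 13 were Mrpl12, Mrpl14, Mrpl16, Mrpl20, Mrpl28, Mrpl34, Mrpl36, Mrpl52, Mrps11, Mrps15, Mrps18a, Mrps34 and Mrps36. The 19 were Mrpl1, Mrpl2, Mrpl4, Mrpl17, Mrpl24, Mrpl30, Mrpl39, Mrpl44, Mrpl46, Mrpl47, Mrpl48, Mrpl50, Mrps2, Mrps6, Mrps14, Mrps17, Mrps30, Mrps31 and Mrps35. Both groups held genes of either subunit. The extremes were Mrps11 at 0.66 (limma adjusted p = 0.00177), Mrps36 at 0.64 and Mrpl12 at 0.59 on the high side, and Mrpl44 at -1.01 (adjusted p = 0.000209) on the low side. The members of highest total RPKM weigh most in this scaling.

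Mrps11 and Mrpl46 are read in opposite directions from starts 41 bases apart, across the stretch printed above, and they differed from each other between the cell types. Mrpl46, a large subunit protein known only from mitochondria, had 5.74, 5.85 and 6.40 RPKM in osteoblasts and 4.25, 3.86 and 4.89 RPKM in chondrocytes, with a log2 difference of 0.39 ± 0.11 (limma adjusted p = 0.0136) that was -0.02 after median-of-ratios scaling (adjusted p = 0.835). The ratio of Mrps11 to Mrpl46 RPKM, which no scaling of a library alters, was 1.67, 1.67 and 1.27 in osteoblasts and 0.624, 0.611 and 0.719 in chondrocytes. Mrps11 was thus the more abundant of the pair in every osteoblast library and Mrpl46 in every chondrocyte library. The mean log2 ratio was 0.61 in osteoblasts and -0.62 in chondrocytes, a difference of 1.23, with p = 0.1 in a two-sided exact permutation test, the smallest p that 3 against 3 libraries allow. An estimated 351, 346 and 231 reads of Mrps11 in osteoblasts and 93.6, 83.6 and 133 in chondrocytes stood behind these values, and 225, 223 and 195 against 161, 147 and 199 reads of Mrpl46. This pair was chosen after its values were seen.

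Divergent neighbours were looked up for the other members as well. Of 67 members with a RefSeq start window, 25 had a gene on the opposite strand that started within 1000 bases of theirs. Outside the family, 19 of these neighbours were tested under their RefSeq symbol. Twnk, next to Mrpl43, is listed under its older symbol Peo1 and was left out of the 19. Peo1 was called higher at 0.44, against 0.97 for Mrpl43. Of the 19 neighbours, 11 were called higher as deposited, 1 (Pnpla7, next to Mrpl41) lower and 7 were not called. Their median log2 difference was 0.41, near the 0.43 of all genes, while the 19 members beside them had a median of 0.79. Some neighbours were of low RPKM, such as Helq, which averaged 2.00 RPKM in osteoblasts and 1.46 RPKM in chondrocytes. Adding 1 before taking the log2 shrinks the difference of such genes, and its part in these medians was not tested. The member had the higher log2 difference in 15 of the 19 pairs. The exceptions were Mrpl14 with Tmem63b (1.31 and 1.45), Mrpl32 with Psma2, a proteasome subunit (0.72 and 0.93), Mrpl47 with Ndufb5, a subunit of respiratory complex I (0.26 and 0.77), and Mrpl51 with Ncapd2, a condensin subunit (1.08 and 1.30).

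**Figure D4:**
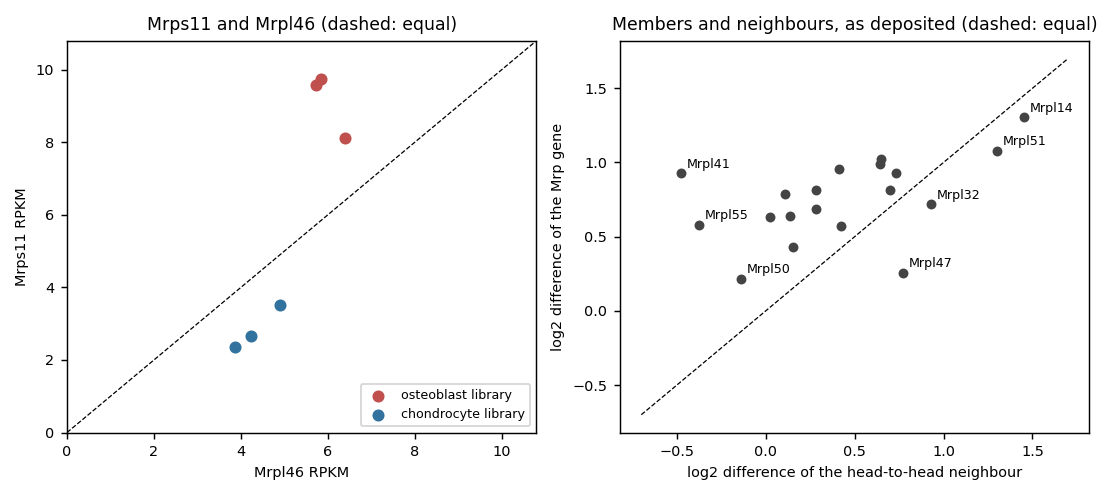
Left, RPKM of Mrps11 against RPKM of Mrpl46 in each library, with equality dashed; the osteoblast points lie above the line and the chondrocyte points below it. Right, log2 difference (osteoblast minus chondrocyte, as deposited) of 19 Mrp genes against that of the head-to-head neighbour, with 15 points above the line of equality and 4 below it (Mrpl14, Mrpl32, Mrpl47 and Mrpl51).

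For the 7 members with several transcripts in the table, the shares of the main transcripts overlapped between the cell types for Mrpl15, Mrpl48, Mrps2 and Mrps36 and not for Mrpl1, Mrps10 and Mrps33. Mrps10, the counterpart of bacterial S10, had 2 main transcripts and a minor one, whose share was at most 1.18% and overlapped. One had 5.42, 6.65 and 5.22 RPKM in osteoblasts and 0.761, 1.88 and 2.31 RPKM in chondrocytes, and the other had 6.20, 5.16 and 4.87 RPKM against 4.11, 3.22 and 3.21 RPKM. The share of the first was 46.1%, 56.3% and 51.7% in osteoblasts and 15.6%, 36.8% and 41.9% in chondrocytes, so the groups did not overlap, but chondrocyte replicate 1 stood well below the other two. In Mrps33, known only from mitochondria, the minor transcript made up 6.15%, 5.23% and 4.59% of RPKM in osteoblasts and 11.4%, 11.7% and 8.93% in chondrocytes, and in Mrpl1 19.3%, 21.6% and 14.9% against 22.3%, 29.6% and 25.8%. Both minor transcripts were low, at 0.639 to 0.973 RPKM for Mrps33 and 0.242 to 0.567 RPKM for Mrpl1 over the libraries. Overlap of shares was not counted over other genes with several transcripts, so the members cannot be set against them. These shares rest on the authors' division of reads between transcripts and were not tested.

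Other genes that the mitoribosome needs were read in the same fit, against the 55.5% higher and 13.5% lower of all tested genes as deposited and the 30.8% higher and 30.6% lower after median-of-ratios scaling. Mitoribosomal proteins whose symbols do not begin with Mrp had values near those of the family: 7 of 7 were called higher, with a median log2 difference of 0.76, and 4 of 7 after median-of-ratios scaling (median 0.35). Aurkaip1, of the small subunit, averaged 22.9 ± 1.34 RPKM in osteoblasts and 9.45 ± 0.785 RPKM in chondrocytes, a log2 difference of 1.19. Ict1, a large subunit protein derived from a peptidyl-tRNA hydrolase, was at 0.99 and Gadd45gip1 at 0.81, whereas Dap3, a GTP-binding protein of the small subunit, was called at 0.38 and turned to -0.06 after that scaling. Of the mitochondrial translation factors, 9 of 14 were called higher and 0 lower (0 also at an unadjusted p under 0.05), and 5 higher and 1 lower after scaling, with medians of 0.42 and -0.0099; the shares called higher, 64.3% and 35.7%, were close to those of all tested genes. Tufm, the elongation factor that delivers tRNA to the ribosome, had 20.6, 23.2 and 20.3 RPKM in osteoblasts and 9.05, 7.34 and 9.54 RPKM in chondrocytes, a log2 difference of 1.22 (limma adjusted p = 0.000104). Its exchange factor Tsfm was at 0.99 and Taco1, which activates translation of cytochrome oxidase subunit 1, at 1.02.

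Factors that assemble the mitoribosome or modify its RNA had a lower median. Of 21 tested, 9 were called higher and 1 lower, with a median log2 difference of 0.20, below the 0.43 of all genes, and after median-of-ratios scaling 3 were higher and 6 lower, with a median of -0.15. Noa1, a GTPase of small subunit assembly, was higher at 1.11 and Rbfa, a small subunit maturation factor, at 0.94. Ftsj2, a methyltransferase of the large subunit RNA, was higher at 0.72. Mterfd2, which brings an RNA methyltransferase to the large subunit, was lower: it had 2.86, 3.08 and 2.22 RPKM in osteoblasts and 7.51, 7.74 and 5.82 RPKM in chondrocytes, a log2 difference of -1.11 (limma adjusted p = 0.000382). Every osteoblast value of Mterfd2 was below every chondrocyte value.

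The enzymes that charge mitochondrial tRNAs had a median log2 difference of 0.49, and of 0.20 after median-of-ratios scaling. As deposited, 14 of 18 (77.8%) were called higher and 0 lower (0 also at an unadjusted p under 0.05). After scaling 4 (22.2%) were higher and 1 lower. Gatc, a subunit of the amidotransferase that completes glutaminyl-tRNA, was at 0.83, Aars2 for alanine at 0.77 and Iars2 for isoleucine at 0.73. Lars2, for leucine, varied widely between replicates, with 35.3, 83.4 and 65.9 RPKM in osteoblasts and 39.7, 173 and 146 RPKM in chondrocytes, and was not called. Among 9 genes of mitochondrial DNA transcription and upkeep, 4 were called higher and 1 lower, and 2 and 4 after scaling. Polrmt, the RNA polymerase of mitochondria, averaged 7.09 ± 0.521 RPKM in osteoblasts and 2.98 ± 0.805 RPKM in chondrocytes (1.04), Top1mt, a topoisomerase, was at 0.73 and Lonp1, a matrix protease, at 0.62. Polg2, the accessory subunit of the DNA polymerase, was lower at -0.49.

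Nuclear factors known to regulate such genes went both ways, with 4 of 7 called higher and 2 lower, and 1 and 2 after scaling; the 57.1% called higher as deposited and the 28.6% called lower after scaling were close to the shares of all tested genes. Esrra, an orphan nuclear receptor of mitochondrial genes, had 12.4, 11.3 and 11.3 RPKM in osteoblasts and 2.74, 2.41 and 3.26 RPKM in chondrocytes, a log2 difference of 1.74 (limma adjusted p = 1.8e-05) and of 1.32 after median-of-ratios scaling. Gabpa, the ETS-domain subunit of the factor GABP, was at 0.36 and turned to -0.09 after that scaling, and Yy1 was at 0.32 and turned to -0.16. Gabpb1, the partner subunit of Gabpa, was lower (-0.55), averaging 5.77 ± 0.241 RPKM in osteoblasts against 8.88 ± 0.0856 RPKM in chondrocytes, as was the coactivator Pprc1 (-0.39), averaging 11.3 RPKM against 15.3 RPKM. The related coactivators Ppargc1a and Ppargc1b did not pass the filter; Ppargc1a averaged 0.127 RPKM in osteoblasts against 1.09 RPKM in chondrocytes, and Ppargc1b 0.806 RPKM against 0.0977 RPKM.

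**Figure D5:**
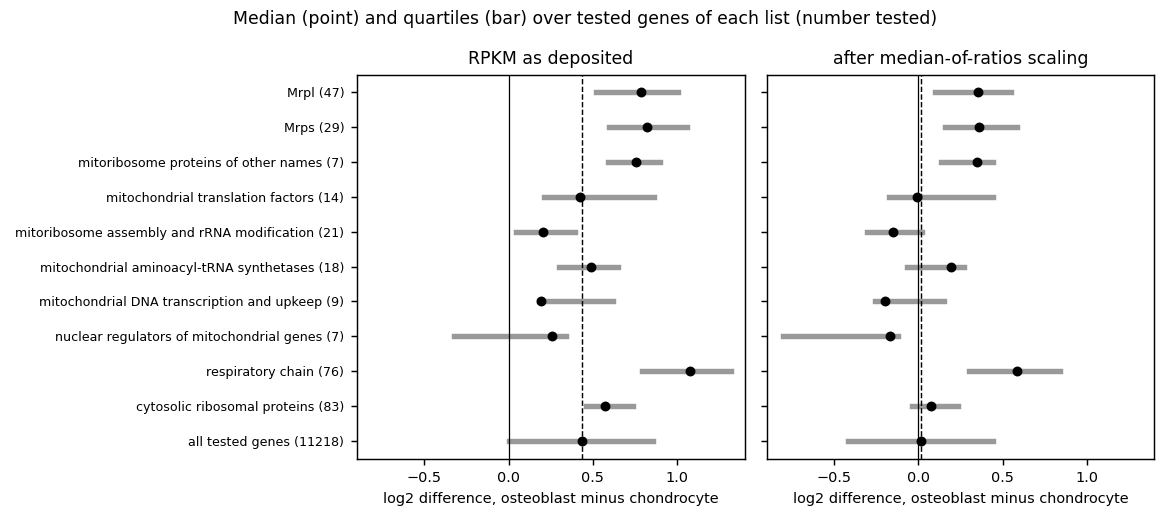
Median (point) and quartiles (bar) of the log2 difference, osteoblast minus chondrocyte, over the tested genes of each list, on RPKM as deposited (left) and after median-of-ratios scaling (right), with the median of all tested genes dashed (0.43 and 0.02). Mrpl and Mrps genes lie above that line on both sides, the respiratory chain genes above them, and the assembly factors below the line; the medians of translation factors (-0.0099), assembly factors, DNA upkeep and nuclear regulators turn negative on the right.

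Set beside the ribosome of the cytosol and the respiratory chain, the mitoribosomal genes lay between the 2. Of 83 tested genes of cytosolic ribosomal proteins, 72 were called higher (86.7%, against 55.5% of all tested genes), with a median log2 difference of 0.57. After median-of-ratios scaling 15 were higher (18.1%, below the 30.8% of all tested genes) and 2 lower (2.41%, against 30.6%), with a median of 0.07. Of 76 respiratory chain genes, 75 were called higher (98.7%), with a median of 1.07. After scaling 59 were higher (77.6%) and 1 lower (1.32%), with a median of 0.59. Per 1000 RPKM of cytosolic ribosomal protein genes, the Mrp genes had 25.2, 27.6 and 24.2 RPKM in osteoblasts and 18.8, 21.8 and 21.2 RPKM in chondrocytes, so the groups did not overlap. Per 100 RPKM of respiratory chain genes they had 23.2, 22.9 and 23.3 RPKM in osteoblasts and 26.9, 25.2 and 25.7 RPKM in chondrocytes, again without overlap and in the opposite order. Both ratios are taken within a library and do not depend on its scaling; a sum is led by its most abundant genes, and near-identical copies of cytosolic ribosomal protein genes make their RPKM uncertain.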

How the data were processed

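RNA-seq was measured in 3 osteoblast and 3 chondrocyte libraries. The authors deposited 1 table of RPKM per RefSeq transcript; TopHat2 2.0.8 and the build mm9 are named in the submitters' processing notes. The counting program, its use of strand and its handling of similar genes are not stated in the sources. Values carry a small added constant (1e-04), so that 0 reads are listed at it. Depth was estimated from the steps of low values: at the chosen totals 66.4% to 67.9% of them came within 0.05 of a whole read, in totals fitted to those values. For a transcript of 2 kb, 1 RPKM is then worth 53.9 to 71.6 reads.

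RPKM was summed by symbol, genes reaching 1 RPKM in 3 or more of 6 libraries were kept, and limma 3.58.1 in R 4.3.3 was run on log2(RPKM + 1) of all 11218 genes, with a variance trend, robust moderation and two-sided Benjamini-Hochberg adjusted p-values, called under 0.05. This scale understates changes of low genes. The alternatives were other scalings, pseudocounts, filters, moderation, library weights, 1 transcript per gene, a replicate block and leaving out each library. Median-of-ratios factors came from genes above 0.01 RPKM in all 6 libraries.

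Named with per-library values were the 6 highest and 6 lowest log2 differences, the 3 most abundant members of each subunit, the Mrps18 paralogs, Mrps30, Mrps36, Mrpl12 and, outside the family, up to 3 called genes per list and direction; other names were chosen after their values were seen. The members and lists were chosen with earlier results of these data known. Sequences and neighbours are from RefSeq GRCm38.p6; no start window was used for Mrpl4, Mrpl13, Mrpl15, Mrpl19, Mrpl38, Mrpl54, Mrps28, Mrps34 and Mrps35. In that annotation 24 of the 76 members overlap another gene.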

Additional observations from a re-analysis of the deposited data

How the results depend on the processing

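The family's median log2 difference was positive under every setting but the scaling to summed Mrp RPKM, which removes the shared shift (median -0.0033, 37 members positive and 39 negative); its size and the calls at the low end rest on the scaling. The median log2 difference of 0.81 became 0.36 after median-of-ratios, 0.39 after quantile, 0.40 after upper-quartile and 0.66 after summed-RPKM scaling, and 0.59 with a pseudocount of 5. The 0 members called lower became 5 (3 Mrpl, 2 Mrps), 5 (3 and 2), 4 (3 and 1) and 1 (1 Mrpl) under those scalings, and 1 (Mrpl44) with library weights. Scaled to summed Mrp RPKM, 13 members (8 and 5) were higher and 19 (12 and 7) lower, where 16.2% and 50.5% of all tested genes were called. Without 1 library, 65 to 67 members were higher (39 to 41 Mrpl, 25 to 26 Mrps), 0 lower, and the median was 0.76 to 0.85. After median-of-ratios scaling, a setting added after the data were seen, leaving out 1 library gave 38, 53 and 43 higher, 4, 6 and 5 lower and medians of 0.33, 0.41 and 0.35 without chondrocyte replicates 1, 2 and 3, and 40, 38 and 39 higher, 1, 3 and 3 lower and medians of 0.35, 0.34 and 0.37 without osteoblast replicates 1, 2 and 3. The cause of these shifts was not tested. Shares of all tested genes called are given only for RPKM as deposited, median-of-ratios scaling and scaling to summed Mrp RPKM, each with all libraries. Counts under the other settings, the replicate block below included, therefore cannot be set against all genes.

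The deviations of same-numbered libraries had correlations of 0.079, 0.0096 and -0.155, and those of differently numbered libraries ran from -0.150 to 0.126. These values cannot show whether same-numbered libraries share an animal or a day, which the labels do not say. With a replicate block 66 members were called higher, and with median-of-ratios scaling and the block 41 were higher and 3 lower, at a median of 0.36. The Mrpl to Mrps ratio moved to 1.91 in osteoblasts with 1 transcript per gene and to 2.20 and 2.26 by place in the ribosome.

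Signs turned for some named members. Under median-of-ratios, quantile, upper-quartile and summed-RPKM scaling, Mrpl1 was at -0.32, -0.39, -0.28 and -0.094, Mrps31 at -0.31, -0.29, -0.27 and -0.028, and Mrps30 at -0.35, -0.30, -0.30 and -0.036. Under the first 3, Mrpl48 was at -0.27, -0.22 and -0.22 and Mrps6 at -0.25, -0.21 and -0.20. Mrpl30 was at -0.055 and -0.0073 under median-of-ratios and upper-quartile scaling and Mrpl46 at -0.023 and -0.0041 under median-of-ratios and quantile scaling. Mrps31 was at -0.018 with library weights, and Mrpl1 ranged from -0.027 to 0.076 when 1 library was left out, below 0 without chondrocyte replicate 1 or osteoblast replicate 1 or 2. Members of low RPKM are limited by depth, the lowest at 49.0 reads.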
